A study of Mus musculus with 9 samples.

Results

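Kainate receptors are a class of ionotropic glutamate receptor, beside AMPA, NMDA and delta receptors, and are built as tetramers from the subunits encoded by Grik1 to Grik5. The 5 kainate receptor genes and the 2 Neto genes, which encode their auxiliary membrane proteins, were taken from the count table by matching Ensembl identifiers without version to gene symbols. All 7 were found, among 22255 identifiers, and all 7 passed the filter on low counts, which kept 14512 genes.

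The samples were synaptoneurosome fractions of the hippocampus, a preparation enriched in pinched-off synaptic endings. All 9 came from Fmr1 KO mice of the C57Bl/6J strain, a model of fragile X syndrome in which Fmr1 is disrupted; controls carry the knockout too. Sub-chronic AM6545, a blocker of the cannabinoid receptor CB1 that enters the brain poorly, had been given to one group of 4 samples (lettered A, B, C, E), and vehicle to the other group of 5 (A to E). Dose, age and sex are not given in the sources used here, nor is it stated that each sample is 1 animal, so p-values measure only the spread between these samples. No wild-type group is analysed here.

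GRIK1, GRIK2 and GRIK3 proteins can form channels by themselves, whereas GRIK4 and GRIK5 bind kainate with high affinity and work in channels together with one of those subunits. NETO1 and NETO2 slow the receptors' gating and change their position at synapses. In the hippocampus, kainate receptors are best known from the mossy fibre synapse between dentate granule cells and CA3 pyramidal cells, where Grik2, Grik4, Grik5 and Neto1 act, and from interneurons, where Grik1 is prominent.

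The stretch that encodes the pore loop of the channel is shown because it holds the Q/R site, a glutamine codon at which RNA editing can change how the channel conducts, and because the subunit classes differ around it. Each line has 108 bases of coding sequence, read in the transcript direction from the GENCODE M21 transcripts (GRCm38), and the capitals mark the codon of the Q/R site.

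Grik1: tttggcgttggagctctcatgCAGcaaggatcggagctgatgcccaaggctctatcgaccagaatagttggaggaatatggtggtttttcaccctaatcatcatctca

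Grik2: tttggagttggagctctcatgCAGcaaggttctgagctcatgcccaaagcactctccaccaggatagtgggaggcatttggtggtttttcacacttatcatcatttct

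Grik3: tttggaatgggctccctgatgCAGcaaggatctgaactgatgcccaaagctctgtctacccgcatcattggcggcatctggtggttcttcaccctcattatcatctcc

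Grik4: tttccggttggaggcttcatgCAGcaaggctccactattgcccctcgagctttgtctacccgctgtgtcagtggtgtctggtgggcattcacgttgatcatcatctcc

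Grik5: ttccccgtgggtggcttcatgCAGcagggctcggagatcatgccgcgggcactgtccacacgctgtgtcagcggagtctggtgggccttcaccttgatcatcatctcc

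All 5 genes carry CAG at this codon in the reference. In Grik1 and Grik2 transcripts the codon is known to be edited by ADAR enzymes, which changes the calcium permeability of the channel. The counts hold no base calls, so editing is not analysed here. Over the 108 bases, Grik1 and Grik2 were 85.2% identical and Grik4 and Grik5 were 78.7% identical. Between Grik4 or Grik5 and the other 3 genes, identity ran from 61.1% (Grik2 and Grik4) to 67.6% (Grik1 and Grik5). Little transcript sequence was shared with other genes: of the 31-base words in each gene's M21 transcripts, between 0% (Neto2) and 0.946% (Grik3) also occurred in another gene of the table outside the 7. No exon of the 7 overlapped an exon of another gene of the table in M21.

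Total counts ran from 17628922 (vehicle A) to 27263393 (vehicle B), and the 7 genes had between 161 counts (Grik3 in vehicle C) and 2648 counts (Neto1 in AM6545 E) in a sample. Markers of excitatory hippocampal neurons were present in every sample, with a summed level of 5166 to 7149 CPM over 7 genes (CPM, counts put on a common library size with TMM factors). Most of each sum was Snap25 (3354 to 5304 CPM), which is not specific to excitatory neurons. None of the 7 dentate granule or 7 CA3 pyramidal cell markers was at 0 in all samples. Other tissue varied between libraries. The sum of 6 choroid plexus markers was 61.5 to 957 CPM in AM6545 samples and 48.5 to 4437 CPM in vehicle samples, and all 6 had the lower level under AM6545 (median log2 fold change -1.50). Vehicle A held 78.2 CPM of 5 pituitary markers, against at most 1.96 CPM in any other sample. In vehicle C the sums of 6 oligodendrocyte markers (10736 CPM), 6 astrocyte markers (1455 CPM) and 6 microglial markers (564 CPM) were the lowest of the 9 samples. The part of these differences in the results that follow was not tested, except where a value without one of these samples is given.

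Per length, Neto1 and Grik5 transcripts were abundant and Grik3 was rare. Levels were divided by the median length of a gene's protein-coding transcripts in M21 and averaged over all 9 samples. Neto1 had the highest level, at 22.5 ± 2.88 CPM per kb (SD, n = 9). It was followed by Grik2 at 13.1 ± 1.59, Grik5 at 12.1 ± 1.31, Grik4 at 8 ± 1.27 and Neto2 at 7.51 ± 0.907 CPM per kb (SD, n = 9). Grik1 was at 4.36 ± 0.5 and Grik3 at 1.07 ± 0.0927 CPM per kb (SD, n = 9). Neighbours in this order were not always apart. The sample ranges did not overlap between Neto1 and Grik2, between Neto2 and Grik1, or between Grik1 and Grik3. Those of Grik2 and Grik5 overlapped, with Grik2 above Grik5 in 7 of 9 samples, as did those of Grik4 and Neto2, with Grik4 higher in 7 of 9. Grik5 and Grik4 overlapped in range, but Grik5 was higher than Grik4 in 9 of 9 samples.

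The place of every gene but Grik1 and Grik3 depended on the length that was used. The median coding transcript of Grik2 had 2846.5 bases and the longest had 9427, so its level was 13.1 CPM per kb by the former and 3.96 by the latter. By the longest transcript Grik5 (12.1 CPM per kb) and Neto1 (12 CPM per kb) were not apart, with Grik5 higher in 5 of 9 samples, and Grik2 was the fifth. By the union of all exons the order was Neto1, Grik5, Grik4, Neto2, Grik2, Grik1 and Grik3. Under all 3 lengths Grik1 was the sixth, Grik3 came last, and the ranges of those 2 genes did not overlap.

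**Figure D1:**
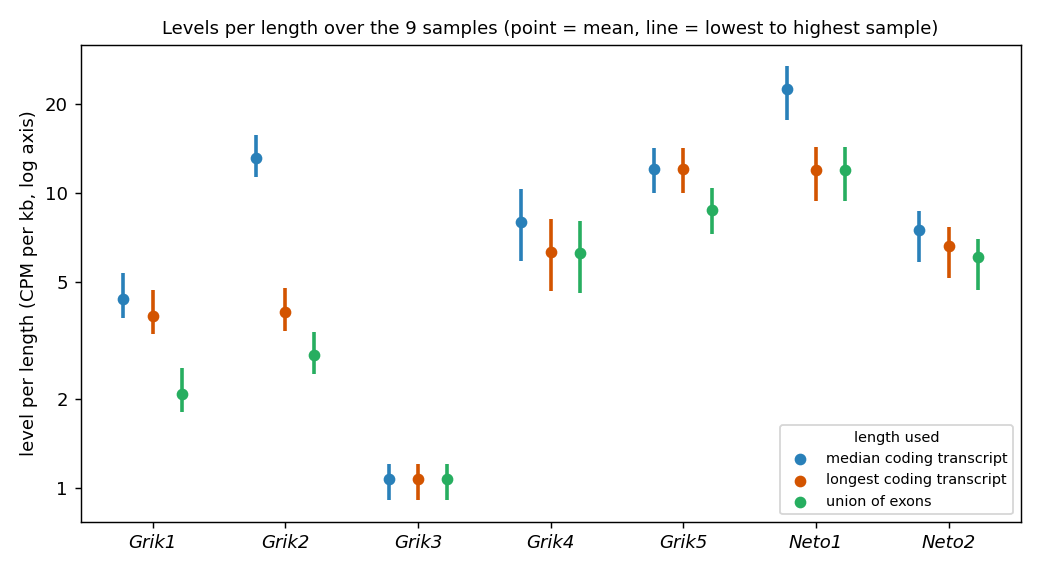
Level of each gene in CPM per kb on a log axis, with 3 choices of gene length in colour. Points are means over the 9 samples and lines run from the lowest to the highest sample: Grik3 stays near 1.07 CPM per kb, while Grik2 moves from 13.1 to 3.96 or 2.82 CPM per kb with the length used.

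The comparison of AM6545 with vehicle asked whether transcripts of this receptor class in the synaptic fraction differ after peripheral CB1 blockade. By edgeR's quasi-likelihood test adjusted over all 14512 genes, 0 of the 7 passed 0.05, against 0% of all genes. DESeq2 and limma-voom called 0 genes as well. The range of log2 fold changes was from -0.11 (Neto1) to 0.27 (Grik4). At an unadjusted p under 0.05 there was 1 of the 7, Grik4, and it was higher, against 7.21% of all genes tested in either direction and 3.03% that were higher. CPM ranges of the groups overlapped for all 7 genes, and did not for 1.45% of all genes. The share at an unadjusted p under 0.05 itself rested on single libraries: 1047 genes passed it with all samples, 496 without vehicle A and 1848 without AM6545 E. The median of the 7 log2 fold changes was 0.022, with 5 higher and 2 lower, beside a median of -0.009 over all genes tested. With single samples left out it ran from -0.04 (without AM6545 E, 3 higher) to 0.12 (without AM6545 B, 6 higher), and with the length trend removed it was -0.01, with 3 higher. The median SD of log2 CPM within groups was 0.169 over the 7 genes and 0.202 over all genes. No 95% interval reached beyond 0.779-fold (the lower end for Neto1) or 1.44-fold (the upper end for Grik4). A p that misses the threshold does not show that the groups were alike; the intervals give the changes these samples leave possible.

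**Figure D2:**
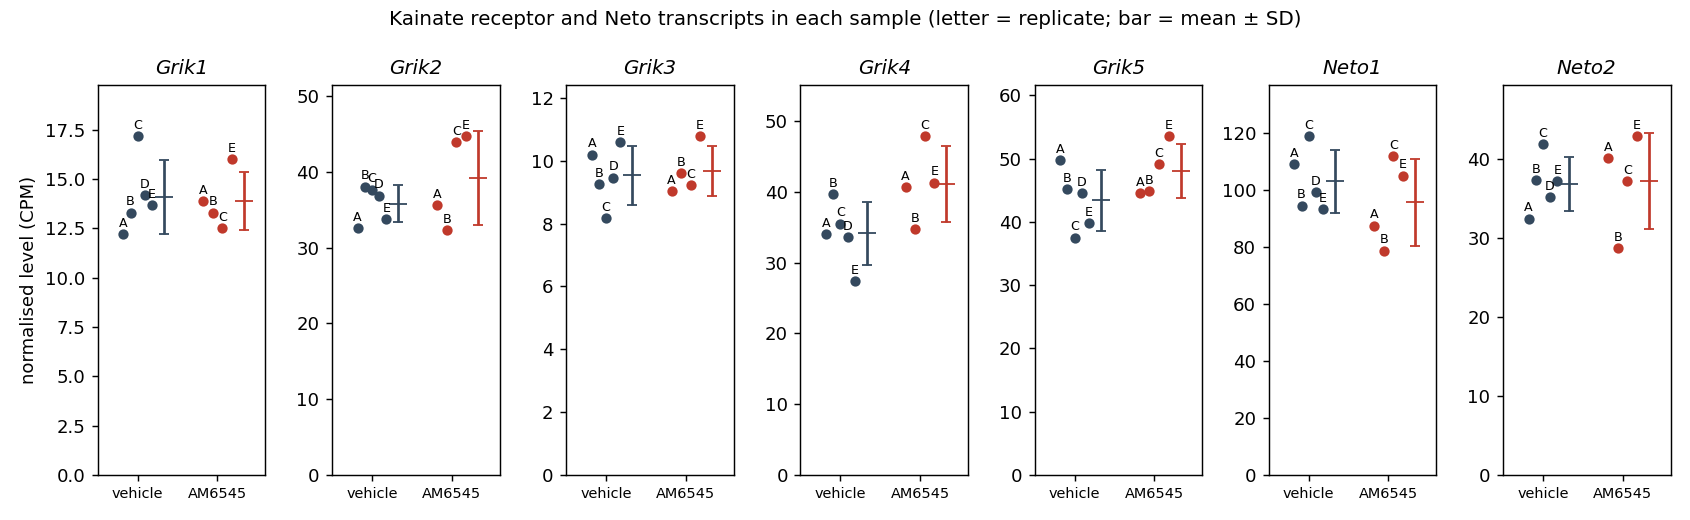
Level of each gene in CPM in every sample, on axes that start at 0; letters are replicates and bars give the mean ± SD of 5 vehicle and 4 AM6545 samples. In Grik4, 3 of the 4 AM6545 samples lie above all vehicle samples, and in every panel the groups overlap.

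Among the high-affinity subunits, Grik4 (ENSMUSG00000032017.15) had 40.7 CPM in AM6545 A, 34.7 in B, 47.9 in C and 41.3 in E. Its vehicle levels were 34.0 CPM in A, 39.7 in B, 35.5 in C, 33.6 in D and 27.4 in E. All 4 AM6545 samples lay above the vehicle mean and 3 of 4 above the highest vehicle sample, while AM6545 B lay inside the vehicle range. Mean levels were 41.1 ± 5.42 CPM under AM6545 (SD, n = 4) and 34.1 ± 4.44 CPM under vehicle (SD, n = 5). The log2 fold change was 0.27 (SE 0.12, 95% interval 0.02 to 0.53), with an unadjusted p of 0.0387 and an adjusted p of 0.653 by edgeR's quasi-likelihood test. By p it stood at rank 774 of 14512 genes. Under 20 alternative settings the log2 fold change was above 0 in each, from 0.19 to 0.36, with adjusted p from 0.325 to 0.92 and an unadjusted p under 0.05 in 12. Without AM6545 C the log2 fold change was 0.19 (edgeR unadjusted p = 0.157), and without vehicle E it was 0.20 (edgeR unadjusted p = 0.106).

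Grik4 is most abundant in CA3 and, at lower levels, in dentate granule cells, so markers of these cells are given beside it. The sum of 7 CA3 markers was 268 to 346 CPM in AM6545 samples and 263 to 295 CPM in vehicle samples, with its highest value in AM6545 C, where Grik4 was highest too. Its lowest value was in vehicle B, where Grik4 had its highest vehicle level, so the sum and Grik4 did not run together in every sample. The sum of 7 dentate markers was 349 to 376 CPM in AM6545 samples and 297 to 374 CPM in vehicle samples, with its lowest value in vehicle E, where Grik4 was lowest. It was higher in AM6545 B (367 CPM) than in AM6545 A (349 CPM), while Grik4 was lower in B (34.7 CPM) than in A (40.7 CPM). By gene, 5 CA3 markers were higher and 2 lower under AM6545 (median log2 fold change 0.13). Of the dentate markers, too, 5 were higher and 2 lower (median 0.08). The part of these markers in the Grik4 difference was not tested. In bulk RNA, more cells of a type and more transcript per cell cannot be told apart.

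Grik5 (ENSMUSG00000003378.10), the more widely expressed partner subunit, had 44.5 CPM in AM6545 A, 44.9 in B, 49.1 in C and 53.6 in E. In vehicle samples it had 49.8 CPM in A, 45.2 in B, 37.5 in C, 44.5 in D and 39.8 in E. Every AM6545 sample was above the vehicle mean, but only AM6545 E was above vehicle A, the highest vehicle sample. The log2 fold change was 0.15 (SE 0.10, 95% interval -0.08 to 0.37, edgeR adjusted p = 0.699), within the spread between replicates. Without vehicle A it was 0.20, and without AM6545 E it was 0.09.

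Of the subunits that form channels alone, Grik2 (ENSMUSG00000056073.17), the main one of principal cells, had 35.6 CPM in AM6545 A, 32.3 in B, 44.0 in C and 44.8 in E. Vehicle samples had 32.6 CPM in A, 38.1 in B, 37.7 in C, 36.9 in D and 33.8 in E. The treated samples fell into a higher pair, C and E, above all vehicle samples, and a lower pair, A and B, of which B was below all vehicle samples. With means of 39.2 ± 6.19 CPM under AM6545 (SD, n = 4) and 35.8 ± 2.44 CPM under vehicle (SD, n = 5), its log2 fold change was 0.13 (SE 0.11, 95% interval -0.11 to 0.37, edgeR adjusted p = 0.742). Leaving out AM6545 E gave 0.06, and leaving out AM6545 B gave 0.21.

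Grik1 (ENSMUSG00000022935.17), the subunit of interneurons, had 13.9 CPM in AM6545 A, 13.3 in B, 12.5 in C and 16.0 in E. Vehicle samples had 12.2 CPM in A, 13.3 in B, 17.2 in C, 14.2 in D and 13.7 in E. Vehicle C was the highest of all 9 samples. The log2 fold change was -0.02 (SE 0.12, 95% interval -0.28 to 0.24, edgeR adjusted p = 0.968), and its sign turned without vehicle C (0.06), AM6545 C (0.03) or AM6545 B (0.0011). The sum of 7 interneuron markers was 700 to 838 CPM in AM6545 samples and 740 to 859 CPM in vehicle samples, also highest in vehicle C. It was lowest of all in AM6545 E, where Grik1 had its highest AM6545 level, so the 2 did not run together in every sample. The part of this sum in the Grik1 level was not tested.

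Grik3 (ENSMUSG00000001985.10), the subunit with the lowest affinity for glutamate, had 9.05 CPM in AM6545 A, 9.62 in B, 9.23 in C and 10.8 in E. Vehicle samples had 10.2 CPM in A, 9.26 in B, 8.18 in C, 9.47 in D and 10.6 in E. It varied the least of the 7: the SD of log2 CPM within groups was 0.133, and 17.2% of the genes tested had a smaller one. The log2 fold change was 0.02 (SE 0.12, 95% interval -0.23 to 0.27, edgeR adjusted p = 0.964), and it turned with each sample's trend on transcript length removed (-0.0065), with limma-voom sample weights (-0.07) and without AM6545 E (-0.04) or vehicle C (-0.03). AM6545 E and vehicle E were its highest samples and vehicle C its lowest, so the groups overlapped.

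The auxiliary genes showed no common direction. Neto1 (ENSMUSG00000050321.4) had 87.5 CPM in AM6545 A, 78.7 in B, 112 in C and 105 in E. Vehicle samples had 109 CPM in A, 94.5 in B, 119 in C, 99.3 in D and 93.3 in E. AM6545 A and B were below all vehicle samples, and AM6545 C and E were inside the vehicle range. The log2 fold change was -0.11 (SE 0.12, 95% interval -0.36 to 0.15, edgeR adjusted p = 0.798). It was -0.02 without AM6545 B and -0.19 without AM6545 C.

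Neto2 (ENSMUSG00000036902.12) had 40.2 CPM in AM6545 A, 28.8 in B, 37.3 in C and 43.0 in E. Vehicle samples had 32.5 CPM in A, 37.4 in B, 41.9 in C, 35.2 in D and 37.3 in E. Both the highest and the lowest of the 9 samples were AM6545 samples, E and B. The log2 fold change was 0.02 (SE 0.12, 95% interval -0.24 to 0.27, edgeR adjusted p = 0.973), and it turned with the length trend removed (-0.03), with the title letter as a block (-0.0097) and without AM6545 A, AM6545 E, vehicle A or vehicle D (lowest -0.06, without AM6545 E).

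**Figure D3:**
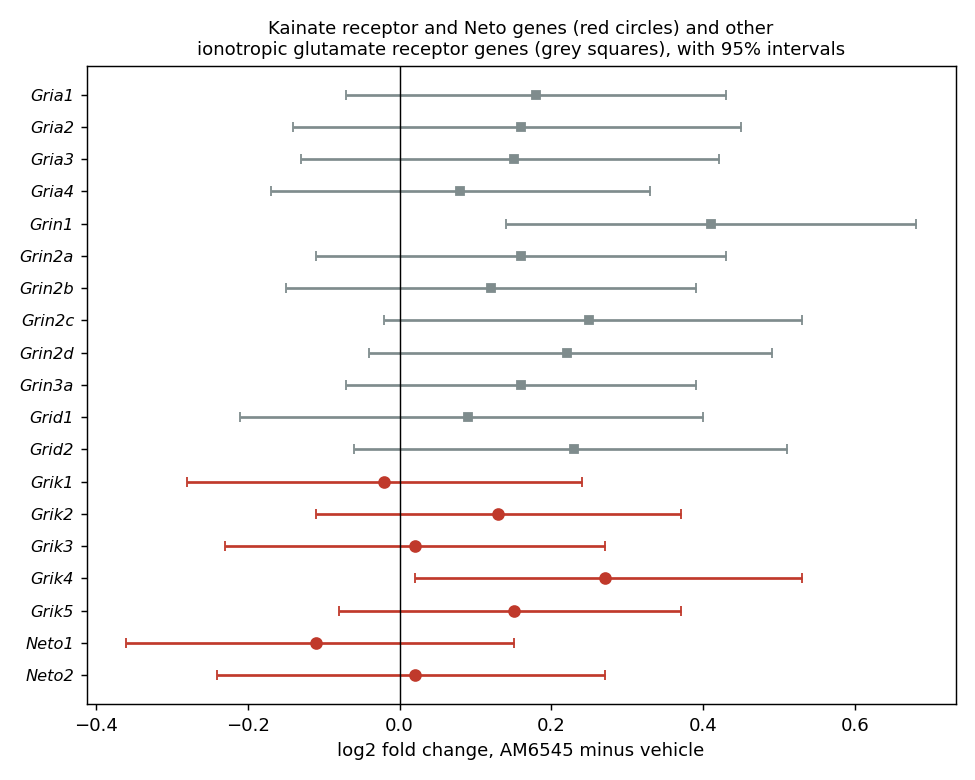
Log2 fold change of AM6545 minus vehicle with its 95% interval for the 7 genes (red circles) and 12 other ionotropic glutamate receptor genes (grey squares). The red points run from -0.11 (Neto1) to 0.27 (Grik4), and the grey points from 0.08 (Gria4) to 0.41 (Grin1).

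The makeup of the receptor transcripts was read as ratios per length within each sample, as a description with no test. Receptor protein and the assembly of subunits were not measured. With median coding lengths, Grik2 made up 33.6% ± 1.83 of the summed Grik level under AM6545 (SD, n = 4) and 34.1% ± 1.81 under vehicle (SD, n = 5). Grik5 made up 31.4% ± 1.42 (SD, n = 4) and 31.3% ± 3.18 (SD, n = 5), and Grik4 21.7% ± 1.77 (SD, n = 4) and 19.8% ± 1.63 (SD, n = 5). High-affinity subunits (Grik4 plus Grik5) stood at 1.06 to 1.17 times the sum of Grik1, Grik2 and Grik3 in AM6545 samples. In vehicle samples that ratio ran from 0.904 (C) to 1.25 (A), so the treated samples lay inside the vehicle range. The level of the ratio rested on the length used: by the longest transcripts its means were 2.19 under AM6545 and 2 under vehicle. The shares did so too. By the longest transcripts Grik2 made up 14.4% under AM6545 and 14.6% under vehicle, and Grik5 44.3% and 44.2%. By the union of exons Grik2 made up 13.2% and 13.6%, and Grik5 41.7% and 42%. On average, Grik2 was above Grik5 only with median coding lengths. With median coding lengths, Neto1 stood at 2.42 to 3.33 times Neto2 in AM6545 samples and 2.78 to 3.73 times in vehicle samples. The means of this ratio were 2.88 and 3.13, but 1.74 and 1.89 by the longest transcripts. The groups overlapped in each of these ratios under all 3 lengths.

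The highest and lowest levels of a group were spread over 8 of the 9 libraries, all but vehicle D. AM6545 E had the highest AM6545 level in 5 of 7 genes (Grik1, Grik2, Grik3, Grik5 and Neto2), and AM6545 B the lowest in 4 of 7 (Grik2, Grik4, Neto1 and Neto2). AM6545 C was highest in Grik4 and Neto1 and lowest in Grik1, and AM6545 A was lowest in Grik3 and Grik5. Among vehicle samples, C was highest in Grik1, Neto1 and Neto2 and lowest in Grik3 and Grik5. Beside the low glial sums of vehicle C stand its sums of excitatory neuron (7149 CPM), interneuron (859 CPM) and isocortex markers (163 CPM, against 121 to 133 CPM elsewhere), each the highest of the 9. Most of that excitatory sum was Snap25 (5304 CPM, its highest of the 9). Slc17a7 (824 CPM) and Fibcd1 (77.9 CPM) were at their lowest of the 9 in vehicle C, and the other excitatory markers were at neither end. AM6545 E had the highest microglial sum (1001 CPM) and the lowest interneuron sum (700 CPM) of the 9. Its astrocyte (2096 CPM) and oligodendrocyte (18815 CPM) sums were the highest of the AM6545 samples. The part of these sums in the extremes was not tested. Vehicle A, which held the pituitary transcripts, was lowest in Grik1, Grik2 and Neto2 and highest in Grik5. Vehicle B was highest in Grik2 and Grik4, and vehicle E was highest in Grik3 and lowest in Grik4 and Neto1.

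Across the 9 samples, 13 of 21 pairs of the 7 genes had a positive Pearson r of log2 CPM, and 2 pairs had an exact permutation p under 0.05 (two-sided). Grik2 and Grik4 had r = 0.73 (exact permutation p = 0.0258, adjusted over 21 pairs 0.377) and Spearman rho = 0.70 (exact permutation p = 0.0433, adjusted 0.466). Grik2 and Neto2 had r = 0.67 (exact permutation p = 0.0497, adjusted 0.377) and rho = 0.68 (exact permutation p = 0.0503, adjusted 0.466). After adjustment 0 of 21 pairs passed by either measure. Without the 2 samples farthest from the median of Grik2, r was 0.44 for Grik2 and Grik4 and 0.75 for Grik2 and Neto2. With group means removed, r was 0.69 and 0.71. The lowest value was r = -0.37, for Grik1 and Grik5 (exact permutation p = 0.325, adjusted 0.719; rho = -0.47, exact permutation p = 0.213, adjusted 0.638). Without the 2 samples farthest from the median of Grik1 that r was -0.77. The sign differed within groups, with r = 0.58 over the 4 AM6545 samples and -0.86 over the 5 vehicle samples, too few for a test. The levels of a pair in a sample share its library, depth and scaling.

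**Figure D4:**
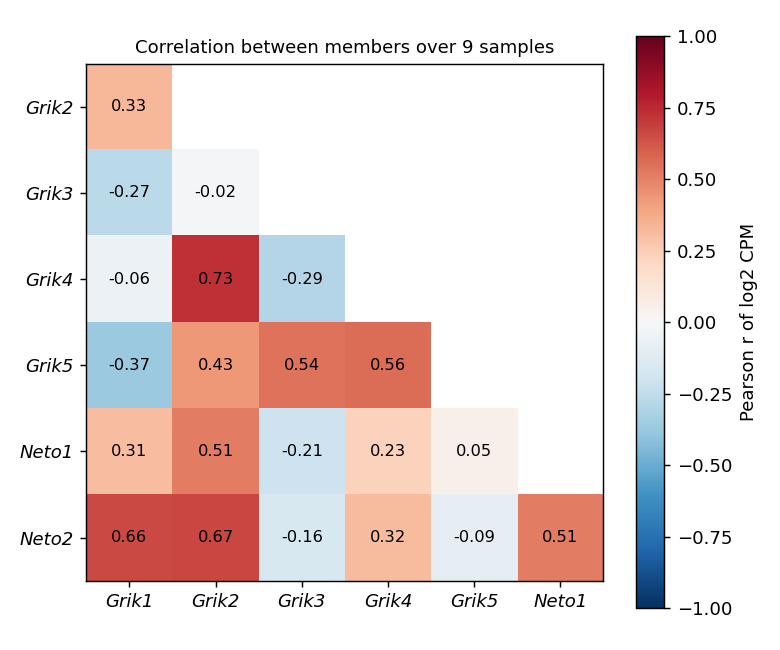
Pearson r of log2 CPM over the 9 samples for each of the 21 pairs of genes. Colour runs from blue (-1) to red (1): Grik2 and Grik4 have the highest r, 0.73, and Grik1 and Grik5 the lowest, -0.37.

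The genes whose levels followed each of the 7 most closely over the 9 samples are named by the highest Pearson r of log2 CPM among all genes tested, with no test. For Grik4 they were Camk2a (r = 0.926), a kinase subunit of excitatory synapses, and Dnajc16 (r = 0.922). For Grik5 they were Cntn2 (r = 0.989), an axonal adhesion protein, and Tmem8 (r = 0.961). For Grik2 they were Syt1 (r = 0.973), the calcium sensor of vesicle release, and Fam189b (r = 0.967). Grik1 was closest to Rcor1 (r = 0.939), a corepressor subunit, and Fbxl4 (r = 0.937). Grik3 was closest to Heg1 (r = 0.918) and Bambi (r = 0.907). Neto1 was closest to Nrn1 (r = 0.963), an activity-regulated neurite protein, and Smim17 (r = 0.961), and Neto2 to Slc35e2 (r = 0.958) and Csgalnact2 (r = 0.940). Each is the top of a search over all 14512 genes with only 9 samples, and nothing of shared function follows from it.

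Partners of kainate receptors were read as a list of 20 genes, of which 19 were matched in the table and tested. Of these, 10 were higher and 9 lower in AM6545 samples, with a median log2 fold change of 0.01 (-0.01 and 8 higher with the length trend removed), and 0 passed by edgeR's quasi-likelihood test (smallest adjusted p = 0.653). At an unadjusted p under 0.05 there were 2, 1 higher and 1 lower, against 7.21% of all genes. The higher one, Kif17, a motor that carries receptor subunits into dendrites, had 13.8 ± 1.96 CPM under AM6545 (SD, n = 4) and 10.9 ± 2.02 CPM under vehicle (SD, n = 5). Sample levels were 13.9 CPM in AM6545 A, 16.3 in B, 13.5 in C and 11.5 in E, and 7.97, 12.3, 13.2, 10.3 and 10.5 CPM in vehicle A to E, so the groups overlapped. The lowest level was in vehicle A, the library with pituitary transcripts. The log2 fold change of Kif17 was 0.34 (SE 0.15, edgeR unadjusted p = 0.0377, adjusted p = 0.653). Under 20 alternative settings it ran from 0.25 (without AM6545 B) to 0.42 (without AM6545 E), with an unadjusted p under 0.05 in 14.

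The 6 scaffold genes ran from -0.10 (Sdcbp, SE 0.10) to 0.18 (Pick1, SE 0.15) in log2 fold change. C1ql2, a mossy fibre protein that binds kainate receptors across the cleft, had 139 ± 15.9 CPM under AM6545 (SD, n = 4) and 126 ± 25.5 CPM under vehicle (SD, n = 5). Its log2 fold change was 0.15 (SE 0.14, edgeR adjusted p = 0.761). Its lowest level of the 9 was 94.4 CPM in vehicle E, the library in which Grik4 was lowest as well. Its highest was 163 CPM in AM6545 B, where Grik4 had its lowest AM6545 level. C1ql2 is also one of the 7 dentate markers summed above. Adarb1 encodes an enzyme known to edit the Q/R codon in Grik1 and Grik2 transcripts. Adarb1 had 22.3 ± 0.947 CPM under AM6545 (SD, n = 4) and 22.2 ± 2.77 CPM under vehicle (SD, n = 5). Its log2 fold change was 0.01 (SE 0.11, 95% interval -0.22 to 0.24, edgeR adjusted p = 0.989).

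The other ionotropic glutamate receptor genes were read beside the kainate receptor genes. Of 13 AMPA, NMDA and delta receptor genes, 12 were tested, and 12 had a positive log2 fold change, with a median of 0.16. Of the 5 kainate receptor subunits 4 did, with a median of 0.13. That count was 3 with the length trend removed, with sample weights or without AM6545 E, and 5 without AM6545 B or without AM6545 C. With the auxiliary genes Neto1 and Neto2 counted in, 5 of 7 had a positive log2 fold change, with a median of 0.02. The 12 stayed positive under each alternative of scaling, filter and test, and 11 did without AM6545 E, where the median was 0.07. Over all genes tested 6996 of 14512 were positive. Of the 7 excitatory neuron markers 6 were positive and 1, Snap25, was negative (-0.11), with a median log2 fold change of 0.15. The part of excitatory neuron content in the receptor medians was not tested. None of the 12 passed by edgeR's quasi-likelihood test (smallest adjusted p = 0.653), and 1 had an unadjusted p under 0.05, against 7.21% of all genes. That gene was Grin1, the obligate NMDA receptor subunit, at 196 ± 24.5 CPM under AM6545 (SD, n = 4) and 148 ± 25.5 CPM under vehicle (SD, n = 5; log2 fold change 0.41, SE 0.13, edgeR unadjusted p = 0.0062, adjusted p = 0.653). Grin3b, under the count filter, was at most at 0.169 CPM. The difference between the medians of the classes was not tested.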

How the data were processed

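The deposited table holds estimated counts per Ensembl gene for 9 samples, many of them fractional, with totals that differ between samples. The submitters' processing notes name Salmon 1.3 and DESeq2 1.30 and the builds GRCm39 and mm10, without roles. Per the labels' protocols, cDNA came from a SMARTer kit for small inputs and was sequenced on a NovaSeq. The annotation release and strand setting are not given in the sources used here. Symbols were found for 22155 of 22255 identifiers, of which 11 carried the GENCODE M21 version, so no coordinates are printed and M21 served for names, lengths and sequence.

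Counts were rounded to whole numbers, filtered with filterByExpr, scaled with TMM and tested over all genes with edgeR 4.0.16 (R 4.3.3; quasi-likelihood F-test, Benjamini-Hochberg, threshold 0.05). The SE of a log2 fold change is its size over the root of the F statistic, and 95% intervals use the t quantile of the fit's degrees of freedom. Log2 CPM used a prior count of 2. Correlations used all orderings of the 9 samples. The 7 genes, the partner, receptor and marker lists, and the tests were chosen with earlier results of these data known. Named were the 7, partners at an unadjusted p under 0.05 (1 of the 2 is not reported here) with Adarb1 and C1ql2, receptor genes at that p, and the 2 genes most correlated with each member. Other genes named give the ends of a range. The partner Klhl17 and the pituitary marker Pit1 had no symbol match and are not analysed here. Alternatives were DESeq2 1.42.0, limma-voom 3.58.1 with and without sample weights, robust estimation, RLE or total-count scaling, a filter of 10 counts in 4 samples or none, mitochondrial genes removed, each sample's trend on transcript length removed, the title letter as a block, and each sample left out.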

Additional observations from a re-analysis of the deposited data

Results flagged for a closer look

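For the 7 genes and 2 ratios, the most extreme sample of each group was checked with Dixon's outlier test. In 18 groups of values 0 samples passed the 95% critical value, where chance would give 0.9.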

How the results depend on the processing

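Of 140 recomputed log2 fold changes of the 7 genes (20 alternatives each), 127 kept their direction and 13 turned, and 0 passed an adjusted p of 0.05. Those of Grik2, Grik4, Grik5 and Neto1 kept their direction in every alternative run. Grik3 turned to -0.07 with limma-voom sample weights and to -0.0065 with the length trend removed, and Neto2 to -0.03 with the length trend removed. Leaving out each sample gave -0.09 to 0.06 for Grik1, -0.04 to 0.06 for Grik3 and -0.06 to 0.12 for Neto2. The cause was not tested. Over all genes, 0 to 1 passed the threshold with a sample left out (1 without AM6545 A). An unadjusted p under 0.05 was found for 1047 genes, 1823 with sample weights, and 496 (without vehicle A) to 1848 (without AM6545 E) with a sample left out. Also beyond 1.5 times apart were 1797 without vehicle B, 690 without AM6545 C, 663 without AM6545 A and 642 without AM6545 B.

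The labels do not say that a letter pairs samples, and deviations of same-letter samples correlated at -0.0183 (A), 0.0374 (B), 0.336 (C) and -0.0212 (E). Pairs of different letters ran from -0.279 (AM6545 C and vehicle A) to 0.351 (AM6545 E and vehicle A). With the letter as a replicate block, 759 genes had an unadjusted p under 0.05 and 0 passed; Neto2 turned to -0.0097. Levels per kb moved by more than 1 SD with another length for Grik1, Grik2, Grik4, Grik5, Neto1 and Neto2. With 4 and 5 samples and biological coefficients of variation from 11.6% (Grik5) to 13.3% (Grik1), the SEs of the 7 log2 fold changes were 0.10 to 0.12. Grik3, with as few as 161 counts in a sample, carries the most counting error.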
